A study of Mus musculus with 4 samples.

Results

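Genes for 10 neuropeptides of the hypothalamus were described across the 4 libraries of the study: Oxt, Avp, Hcrt, Pmch, Trh, Pomc, Agrp, Gal, Cartpt and Ghrh. They were chosen by symbol, as peptides whose cell bodies are best known from hypothalamic nuclei, and 9 of the 10 were found among the 12700 genes of the count table. Pmch, the precursor of melanin-concentrating hormone, was not analysed here. RNA of C57BL/6 mice aged 9 months was pooled from 7 Ids knockout animals (Ids-ko), a model of the lysosomal disease mucopolysaccharidosis type II, and from 7 wild-type littermates (wt). Each brain was divided into the cerebral cortex (Cx) and an area M made of midbrain, diencephalon and hippocampus, where the diencephalon held the hypothalamus, thalamus and striatum. Polyadenylated RNA was sequenced as 1 library for each of the conditions CxH and MH (Ids-ko) and CxWT and MWT (wt), without replicates. Both areas came from the same brains, so the comparisons of genotypes in Cx and in M share their animals. The comparison of genotypes in each area asked which genes change in the diseased brain. The hypothalamus was dissected into M, so the labels place the peptide neurons in MH and MWT.

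Hypothalamic neuropeptides are made as large precursors that are cut by prohormone convertases, amidated or trimmed, and stored in dense-core granules until release. Most are made by small, densely packed groups of neurons, and their messenger RNAs are very abundant in those cells and scarce elsewhere. Oxytocin and vasopressin travel down axons to the posterior pituitary, the releasing hormones act on the anterior pituitary, and the others act mainly within the brain on feeding, arousal and energy balance. Cartpt, Trh, Pomc, Agrp and Gal are not all limited to the hypothalamus, and Cartpt and Trh in particular are also made by neurons of other brain areas.

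Values are reads of a gene per 1000000 aligned reads of its library (RPM), with exact 95% Poisson intervals of the count, which like every standard error and floor here cover counting error only. The floor of 3 reads lay at 0.0779, 0.0892, 0.0803 and 0.104 RPM across CxH, CxWT, MH, MWT. A gene was called when a Poisson likelihood ratio test of its counts passed 0.05 and its log2 ratio was at least 0.7 in size, which compares 2 libraries and not the conditions. In such bulk RNA, fewer cells of a type and less RNA per cell cannot be told apart.

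The libraries held between 16380080 (MWT) and 23475080 (CxH) reads on genes. The gene disrupted in the model, Ids, had 135 RPM in CxH against 354 in CxWT, and 368 in MH against 155 in MWT. Its log2 ratio was -1.39 ± 0.024 (SE) for CxH over CxWT but 1.24 ± 0.025 for MH over MWT, so in M the library labelled Ids-ko held more Ids reads. Markers of the dissected areas also went against labels. A list of 20 genes of cortical excitatory neurons, all measured, summed to 5130 and 4615 RPM in the libraries labelled CxH and MH, and to 1098 and 911 RPM in those labelled CxWT and MWT. A list for midbrain and thalamus, with 19 of 25 genes measured, summed to 53.9 and 72.0 RPM in CxH and MH and to 613 and 554 RPM in CxWT and MWT. Of these 19 genes, 18 were called lower in CxH than in CxWT and 18 lower in MH than in MWT, against 11.5% and 12.7% of all genes called lower. The midbrain factor En1 had 1, 273, 0 and 126 reads across CxH, CxWT, MH, MWT. Every level below therefore belongs to a library as it is labelled, and whether a label names the animals and area of its library was not tested.

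The genes of oxytocin and vasopressin are neighbours in the mouse genome and near copies in part, which matters for counting their reads. On NCBI37/mm9, with GENCODE vM1 gene models, Oxt runs on the plus strand of chr2:130401909-130402790 and Avp on the minus strand of chr2:130406356-130408290. The genes face each other, with 3565 bases between their ends. Both have 3 exons, and exon 2 of each has 202 bases, all of them coding, within the part that encodes the carrier protein neurophysin. The exons are shown whole in the direction of transcription because 193 of the 202 bases were identical (95.5%), with the 9 that differ in capitals.
Oxt exon 2, chr2:130402327-130402528, plus strand: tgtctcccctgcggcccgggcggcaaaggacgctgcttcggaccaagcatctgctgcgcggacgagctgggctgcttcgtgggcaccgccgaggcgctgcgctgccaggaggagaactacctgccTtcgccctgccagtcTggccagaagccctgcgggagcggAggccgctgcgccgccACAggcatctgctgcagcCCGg
Avp exon 2, chr2:130406792-130406993, minus strand: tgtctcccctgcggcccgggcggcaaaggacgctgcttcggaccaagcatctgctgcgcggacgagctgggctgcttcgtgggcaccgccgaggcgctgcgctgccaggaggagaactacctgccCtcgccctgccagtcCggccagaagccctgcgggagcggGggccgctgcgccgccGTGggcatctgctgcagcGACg
The first 125 bases were the same in both genes, which is 23.3% of the Oxt transcript and 21.7% of the Avp transcript. A read lying wholly in that run matches both genes, and reads that fitted more than 1 gene were left out of the counts, so the levels of both genes rest on the rest of their transcripts.

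**Figure D1:**
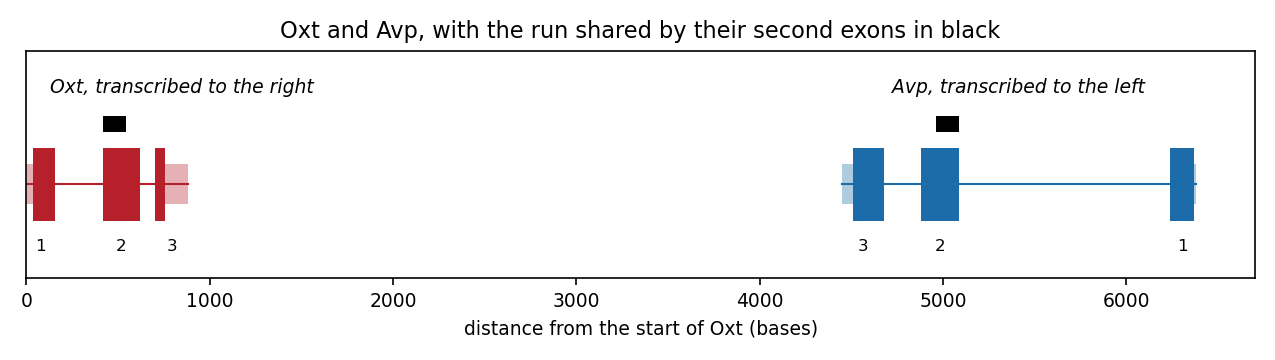
Map of Oxt (red) and Avp (blue) on NCBI37/mm9, with the distance from the start of Oxt in bases on the x axis. Tall boxes are coding parts of exons, numbered in the direction of transcription, low boxes are untranslated parts, and the black bars mark the 125 identical bases of the second exons.

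The hormones themselves are short peptides encoded in exon 1, and these stretches tell the genes apart. Each stretch below holds the 9 codons of the hormone (27 bases) and the 3 codons that follow, which mark the site of amidation and cleavage, with the bases that differ within the hormone in capitals.
Oxt hormone codons, chr2:130402003-130402038, plus strand: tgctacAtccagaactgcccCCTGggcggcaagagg
Avp hormone codons, chr2:130408173-130408208, minus strand: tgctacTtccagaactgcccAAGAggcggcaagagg
The hormones' stretches differed at 5 bases, in codons 3, 7 and 8 counted from the first codon of the hormone.

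Oxt, the precursor of oxytocin, had 658 reads in CxWT and 231 in MWT, but 1 read in CxH and 6 in MH. On the RPM scale its levels were 19.6 (18.1 to 21.1) in CxWT, 7.98 (6.98 to 9.08) in MWT, 0.161 (0.0589 to 0.3495) in MH and 0.0260 (0.000658 to 0.145) in CxH. Both libraries labelled wt were far above both libraries labelled Ids-ko, with no overlap of the intervals, and the highest level stood in the library labelled as cortex. The fold between CxWT and CxH was 754 (134.8 to 29810), its wide interval following from the single read in CxH, or 251 with CxH set to the floor of 3 reads. Between MWT and MH it was 49.7 (22.5 to 136.8).

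Avp, the precursor of vasopressin, had 3 reads in CxH against 503 in CxWT, and 7 in MH against 276 in MWT. Its levels were 0.0779 (0.0161 to 0.228), 15.0 (13.7 to 16.3), 0.187 (0.0753 to 0.386) and 9.54 (8.44 to 10.7) RPM in the same order. The pattern was that of Oxt, with the same order of the 4 libraries. The fold was 192 (65.3 to 934) for CxWT over CxH and 50.9 (24.4 to 127.8) for MWT over MH. The share of Oxt in the summed reads of Oxt and Avp was 56.7% (exact Clopper-Pearson 95% interval 53.8 to 59.6%, 1161 reads) in CxWT and 45.6% (41.2 to 50.01%, 507 reads) in MWT, and these intervals did not overlap. In CxH and MH that share rested on 4 and 13 reads.

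Hcrt, the precursor of the orexins, which keep animals awake and are made in the lateral hypothalamic area, lies on the minus strand of chr11:100622383-100624245. It had 3 reads in CxH against 542 in CxWT, and 3 in MH against 312 in MWT. Its levels were 16.1 (14.8 to 17.5) RPM in CxWT and 10.8 (9.62 to 12.04) RPM in MWT, and in both other libraries it stood at the floor. The fold was 207 (70.4 to 1006) for CxWT over CxH and 134.2 (45.5 to 654) for MWT over MH. No more than 3 reads of this gene were found in the library labelled MH, whose area includes the hypothalamus, while the library labelled as wild-type cortex held the most.

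The regions upstream of these 3 genes are printed because the genes with the widest differences between libraries were Oxt, Avp and Hcrt. Each run holds the 250 bases before the annotated start of transcription on NCBI37/mm9, in the direction of transcription. Capitals mark TATAAA, the core of a TATA box, and TGACC, the core to which oestrogen and orphan nuclear receptors bind, each sought on either strand. The motifs share no letters of a match in these runs.
Oxt upstream region, chr2:130401659-130401908, plus strand: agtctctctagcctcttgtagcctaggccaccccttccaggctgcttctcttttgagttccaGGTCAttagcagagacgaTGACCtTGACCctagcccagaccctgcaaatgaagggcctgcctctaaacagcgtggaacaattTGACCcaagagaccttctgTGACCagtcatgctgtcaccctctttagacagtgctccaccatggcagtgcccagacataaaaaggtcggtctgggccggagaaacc
Avp upstream region, chr2:130408291-130408540, minus strand: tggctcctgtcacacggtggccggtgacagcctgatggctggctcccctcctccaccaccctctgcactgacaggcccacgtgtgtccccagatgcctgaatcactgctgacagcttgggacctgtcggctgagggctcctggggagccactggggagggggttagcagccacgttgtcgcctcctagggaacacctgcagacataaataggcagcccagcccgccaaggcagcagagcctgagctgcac
Hcrt upstream region, chr11:100624246-100624495, minus strand: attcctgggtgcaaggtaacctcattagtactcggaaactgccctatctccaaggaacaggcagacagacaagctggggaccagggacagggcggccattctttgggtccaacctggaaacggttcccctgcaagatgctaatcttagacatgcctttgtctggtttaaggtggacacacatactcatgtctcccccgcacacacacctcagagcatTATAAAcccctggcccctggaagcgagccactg
TGACC occurred 5 times upstream of Oxt, with first bases 188, 170, 164, 106 and 87 before the start. Of 12228 such regions of the genes in the table, 32.2% held TGACC at least once and 3 held it at least 5 times. Among the 9 peptide genes 5 held it (Oxt, Trh, Pomc, Gal and Cartpt). TATAAA was found upstream of Hcrt, 33 bases before the start, and of Pomc, 31 bases before it, both in the direction of transcription. That is 2 of 9 peptide genes, against 6.38% of all 12228 with matches on either strand counted. A match is a run of letters and not a shown site, and the absence of these letters in a window says nothing about a factor.

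Trh and Ghrh encode releasing hormones of the anterior pituitary, for thyrotropin and for growth hormone. Trh (chr6:92192055-92194644, minus strand) had 249 reads in CxH against 700 in CxWT, and 168 in MH against 829 in MWT. Its levels of 6.47 (5.69 to 7.32), 20.8 (19.3 to 22.4), 4.496 (3.84 to 5.23) and 28.6 (26.7 to 30.7) RPM in that order had no overlapping intervals. Trh thus had its highest level in MWT and its lowest in MH, and it stayed well above the floor in every library. The log2 ratio was -1.69 ± 0.11 for CxH over CxWT and -2.67 ± 0.12 for MH over MWT, or 3.22-fold (2.78 to 3.74) and 6.37-fold (5.39 to 7.56) higher in the libraries labelled wt.

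Ghrh (chr2:157155233-157173242, minus strand) was scarce, with 0 reads in CxH against 16 in CxWT, and 1 in MH against 18 in MWT. CxH, with 0 reads, was under the floor of 0.0779 RPM, with an exact upper limit of 0.0958 RPM, while CxWT had 0.476 (0.272 to 0.773) and MWT 0.622 (0.368 to 0.983) RPM. Set against the floor of 3 reads in CxH, Ghrh was at least 6.11-fold higher in CxWT, a bound that covers the counting error of neither count. Its ratio between MWT and MH was 23.2 (3.67 to 968), or 7.74 with MH at the floor. The libraries labelled wt did not differ beyond counting error.

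Pomc, Agrp and Cartpt belong to the feeding circuit of the arcuate nucleus, where cells with Pomc and Cartpt restrain feeding and cells with Agrp promote it. Pomc (chr12:3954951-3960618, plus strand) had 23, 83, 31 and 52 reads across CxH, CxWT, MH, MWT. Its levels were 0.597 (0.379 to 0.896), 2.47 (1.97 to 3.06), 0.830 (0.564 to 1.18) and 1.80 (1.34 to 2.36) RPM in that order. Both libraries labelled wt were above both labelled Ids-ko, and within each of these pairs the intervals overlapped. Pomc was 4.13-fold (2.58 to 6.88) higher in CxWT than in CxH and 2.17-fold (1.36 to 3.50) higher in MWT than in MH.

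Agrp (chr8:108090600-108092198, minus strand) was, with Ghrh, the scarcest of the group per length of transcript in CxWT and MWT. It had 12 reads in CxH against 13 in CxWT, and 2 in MH against 10 in MWT, or 0.312 (0.161 to 0.544), 0.387 (0.206 to 0.661), 0.0535 (0.00648 to 0.193) and 0.346 (0.166 to 0.635) RPM. The level in CxH was close to those of CxWT and MWT on this scale, and MH alone stood under the floor of 3 reads. Agrp was the 1 gene of the 9 that was not called between CxH and CxWT, with a log2 ratio of -0.31 ± 0.58 and a fold for CxWT over CxH between 0.522 and 2.98. It was called between MH and MWT, where the ratio of MWT over MH was 6.45 (1.38 to 60.6), or 4.30 with MH at the floor of 3 reads.

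Cartpt (chr13:100668439-100670638, minus strand), which encodes the cocaine- and amphetamine-regulated transcript peptides, had the most reads of the group in CxH, CxWT and MH. Its reads numbered 260, 1694, 250 and 751 across CxH, CxWT, MH, MWT, or 6.75 (5.96 to 7.62), 50.4 (48.0 to 52.8), 6.69 (5.89 to 7.57) and 26.0 (24.1 to 27.9) RPM. CxH and MH were nearly equal, at a log2 ratio of 0.013 ± 0.13, and CxWT was the highest. Cartpt was 7.46-fold (6.55 to 8.54) higher in CxWT than in CxH and 3.88-fold (3.36 to 4.49) higher in MWT than in MH.

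Gal (chr19:3409919-3414472, minus strand) encodes galanin, made in several hypothalamic nuclei and in the locus coeruleus. It had 17, 161, 9 and 131 reads across CxH, CxWT, MH, MWT. Its levels were 0.442 (0.257 to 0.707), 4.79 (4.08 to 5.59), 0.241 (0.110 to 0.457) and 4.53 (3.78 to 5.37) RPM in that order. Intervals overlapped within the pair labelled wt and within the pair labelled Ids-ko, but not between the pairs. Gal was 10.8-fold (6.57 to 19.1) higher in CxWT than in CxH and 18.8-fold (9.60 to 42.0) higher in MWT than in MH.

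**Figure D2:**
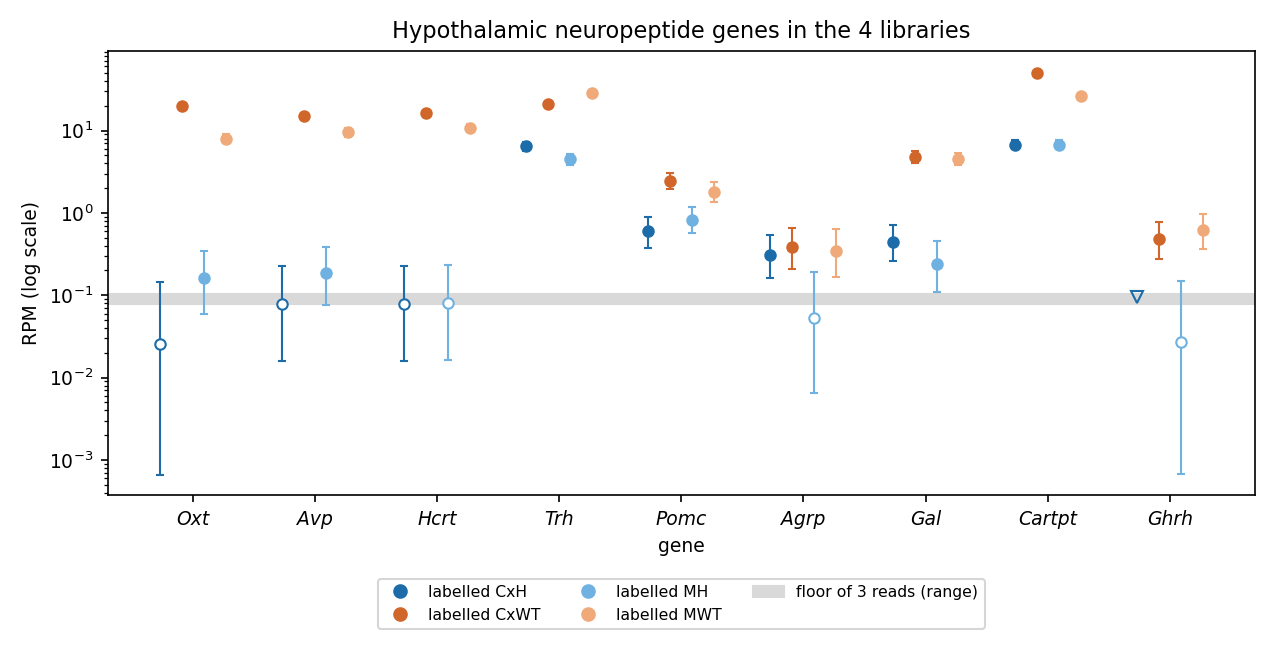
Levels of the 9 peptide genes in RPM (log scale) in the libraries as labelled, with exact 95% Poisson intervals of the count as bars. Open circles mark 3 or fewer reads, the triangle is the upper limit for Ghrh in CxH, and the grey band is the range of the floor of 3 reads. Oxt, Avp and Hcrt lay between 7.98 and 19.6 RPM in CxWT and MWT and under 0.20 RPM in CxH and MH.

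The summed level of the 9 genes was 14.8 (13.6 to 16.02) RPM in CxH against 130.0 (126.2 to 133.9) in CxWT, and 12.8 (11.6 to 14.0) in MH against 90.2 (86.7 to 93.7) in MWT. Cartpt and Trh made up most of what was left in the libraries labelled Ids-ko, with 45.8% and 43.8% of the summed reads in CxH and 52.4% and 35.2% in MH. In CxWT the same genes made up 38.8% and 16.0%, and Oxt, Hcrt and Avp added 15.1%, 12.4% and 11.5%. In MWT Trh had the largest share, 31.8%, ahead of Cartpt with 28.8%.

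Levels were also compared between the genes per kilobase of the longest protein-coding transcript (RPKM), since the transcripts differ in length. On this scale CxWT had the order Cartpt (57.6 RPKM), Oxt (36.4), Hcrt (27.5), Avp (25.9), Trh (15.0), Gal (6.73), Pomc (2.45), Ghrh (0.922) and Agrp (0.587). Neighbours in that order had intervals apart, except for Hcrt and Avp and for Ghrh and Agrp. In MWT the order was Cartpt (29.7 RPKM), Trh (20.7), Hcrt (18.4), Avp (16.5), Oxt (14.9), Gal (6.36), Pomc (1.78), Ghrh (1.205) and Agrp (0.524), and neighbours overlapped in turn from Trh to Oxt and from Pomc to Agrp. Counted over the transcript without the 125 bases shared by Oxt and Avp, a length chosen after the data were seen, Oxt had 47.5 and Avp 33.1 RPKM in CxWT, and Avp then stood above Hcrt with intervals apart. In MWT that length gave Avp 21.1 and Oxt 19.4 RPKM, so the order there became Cartpt, Avp, Trh, Oxt and Hcrt, the last 4 again overlapping in turn. The places of Oxt and Avp in these orders thus depend on the length used. In CxH and MH only Cartpt, at 7.73 and 7.66 RPKM, and Trh, at 4.67 and 3.25 RPKM, stood apart from the next gene.

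For CxH against CxWT, 8 of the 9 genes were called lower and 0 higher, while 20.9% of all genes were called (9.46% higher and 11.5% lower). The median log2 ratio of the 9 genes, with counts of 3 or fewer set to 3, was -2.90, against -0.094 over all genes. For MH against MWT, all 9 were called lower, against 25.0% of all genes called (12.3% higher and 12.7% lower), and the medians were -2.95 and -0.066. Genes entered the table after a filter on read coverage by the authors, and 4 of the 9 genes in CxH and 3 in MH had 3 or fewer reads. A gene that passed through the libraries where it was high had to differ, so these counts and medians are a description of the measured genes. The cortical and midbrain markers and Ids, with the values given above, moved with both comparisons, and their part in the result was not tested.

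The areas were compared within each genotype label. For CxWT against MWT, 2 of the 9 genes were called, both higher in CxWT, against 7.54% of all genes called (5.43% higher and 2.11% lower). These were Oxt, 2.45-fold (2.11 to 2.86) higher, and Cartpt, 1.94-fold (1.78 to 2.12) higher, both in the library labelled as cortex. At a log2 threshold of 1 the call of Cartpt was lost and 2.32% of all genes were called. After a correction for GC content and length both calls stood, while 3.04% of the 12231 genes with these values were called, 171 higher and 201 lower. Avp was 1.57-fold (1.35 to 1.82) and Hcrt 1.496-fold (1.30 to 1.73) higher in CxWT without reaching the threshold of 0.7, while Trh was 1.38-fold (1.24 to 1.52) higher in MWT. The same correction lowered the log2 ratio of Avp from 0.65 to 0.19 and that of Hcrt from 0.58 to 0.36, while Trh went from -0.46 to -0.52. Gal, at a log2 ratio of 0.082 ± 0.17, Pomc, Agrp and Ghrh did not differ beyond counting error between these libraries. The direction between the libraries labelled CxWT and MWT was therefore not shared by the group, with Trh opposite to Oxt and Cartpt. Trh was also opposite to Avp and Hcrt, whose differences were smaller after the correction. Ids, at a log2 ratio of 1.19 ± 0.025, moved with this comparison too, as did the choroid plexus list, with 6 of 9 measured genes called lower in CxWT and a median log2 ratio of -0.95, and their part was not tested.

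For CxH against MH, 1 of the 9 genes was called higher and 1 lower, against 3.5% of all genes called, 2.43% higher and 1.06% lower. The gene called higher was Agrp, with 12 reads against 2 and a ratio of 5.82 (1.30 to 53.6), or 3.88 with MH at the floor. The gene called lower was Oxt, with 1 read against 6, and its ratio of MH over CxH, 6.18, had an interval from 0.7501 to 284 that includes no difference. Trh was 1.44-fold (1.18 to 1.76) higher in CxH and under the threshold. Hcrt and Ghrh had 3 or fewer reads in both libraries and no fold was computed.

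The libraries were also compared across both labels at once, since the levels of area markers set CxH beside MH and CxWT beside MWT. For CxH against MWT, 8 of 9 genes were called lower, all but Agrp, against 30.7% of all genes called (15.6% higher and 15.1% lower). For MH against CxWT 9 of 9 were called lower, against 15.3% of all genes called (6.41% higher and 8.89% lower). The median log2 ratio of the group was -3.00 for CxH over MWT and -2.91 for MH over CxWT, with -0.041 and -0.112 over all genes. Ids was not called in either of these pairs, with log2 ratios of -0.20 ± 0.029 and 0.058 ± 0.018. The area markers moved with both pairs: 18 of the 19 midbrain and thalamus genes were called lower in each, and 17 (CxH against MWT) and 16 (MH against CxWT) of the 20 cortical genes higher, and their part in the result was not tested. These pairs share libraries with the comparisons above, and the same filter on the table applies to their counts.

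**Figure D3:**
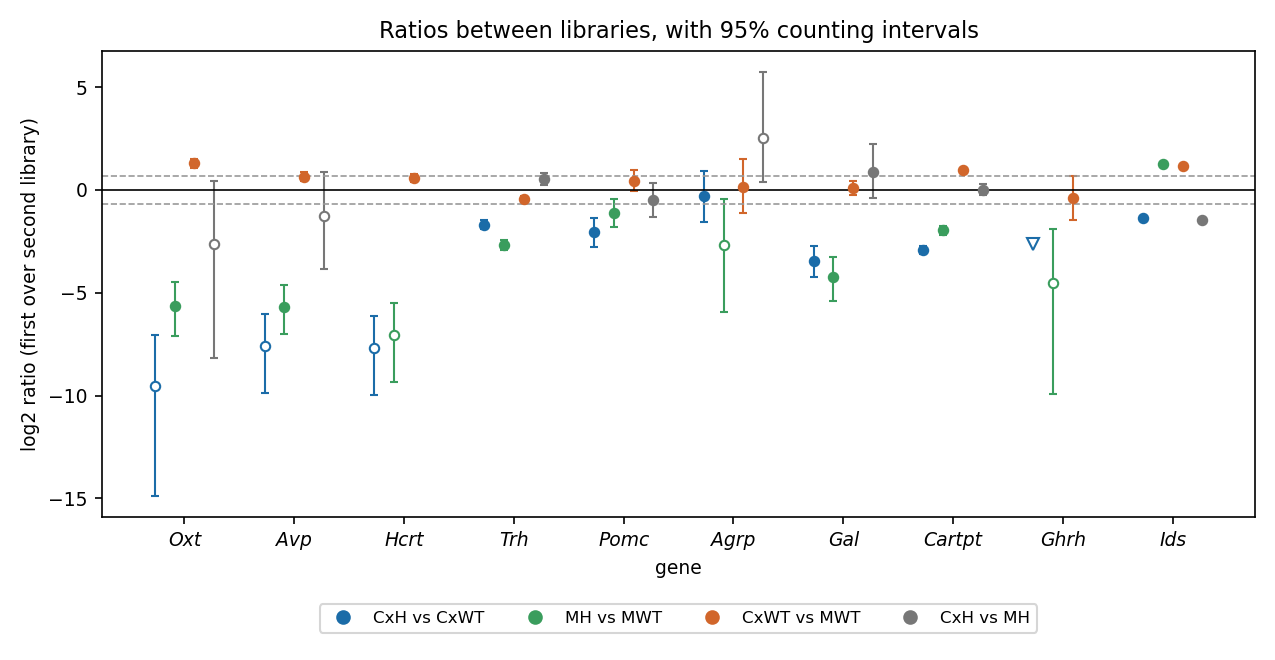
Log2 ratios of the 9 peptide genes and Ids between pairs of libraries as labelled, first over second, with 95% counting intervals as bars and dashed lines at the threshold of 0.7. Open circles rest on 3 or fewer reads in 1 library, and the triangle is the bound of Ghrh for CxH over CxWT. For Ids the ratio was -1.39 for CxH over CxWT and 1.24 for MH over MWT, while the peptide genes lay below 0 in both.

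Other peptides made in the hypothalamus, several of them also in cortex or striatum, were measured for 14 of a list of 26 genes, and they did not move one way. For CxH against CxWT 5 were called higher and 4 lower, with a median log2 ratio of 0.24, and for MH against MWT 7 were called higher and 4 lower, with a median of 0.72. Over all genes, 20.9% and 25.0% were called in these comparisons. The peptides called higher included those of cortical and striatal interneurons and projection neurons. Kiss1 was also called higher in both, with 19, 5, 10 and 2 reads across CxH, CxWT, MH, MWT. Npy rose from 12.2 RPM in CxWT to 43.9 in CxH and from 9.29 in MWT to 42.8 in MH, with log2 ratios of 1.85 ± 0.079 and 2.20. Sst, somatostatin, had log2 ratios of 0.98 and 0.98, Vip 1.67 and 2.13, and Penk, proenkephalin, 1.07 and 0.77. Among those lower were Nts, neurotensin, at -1.76 and -2.13, Tac2, neurokinin B, at -1.36 and -1.31, and Adcyap1, the precursor of PACAP, at -1.31 and -1.63. Tac1, the precursor of substance P, had log2 ratios of -0.21, not called, and -0.96. Gnrh1 had -1.54, called, and -0.63, not called. For CxWT against MWT 1 of the 14 was called higher and 0 lower, and for CxH against MH none was called, against 7.54% and 3.5% of all genes called.

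Receptors for the peptides were measured for 8 of 18 genes, and 5 were called lower and 1 higher in both comparisons by genotype label, with medians of -1.29 and -0.84. Over all genes, 20.9% (CxH against CxWT) and 25.0% (MH against MWT) were called. The orexin receptors were lower, Hcrtr1 at -1.84 ± 0.19 for CxH over CxWT and -1.80 for MH over MWT, and Hcrtr2 at -2.09 ± 0.22 and -1.42. The receptor of thyrotropin-releasing hormone, Trhr, had log2 ratios of -1.71 and -0.97, and the melanocortin receptors had -2.09 and -1.70 (Mc3r) and -0.86 and -0.70 (Mc4r). Mchr1, the receptor of melanin-concentrating hormone, was called higher at 0.98 and 0.99. The oxytocin receptor Oxtr, with 8.36, 5.77, 7.66 and 5.22 RPM across CxH, CxWT, MH, MWT, had log2 ratios of 0.54 and 0.55, neither called, and Trhr2 was not called either. Hcrt and both of its receptors were thus called lower in both comparisons, while Oxtr was called in neither.

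The machinery that processes and packs the precursors was measured for all 18 genes of its list, summing to between 3797 and 4149 RPM in the 4 libraries. For CxH against CxWT 1 of the 18 was called higher, the granin Chgb at 0.81 ± 0.028, and 1 lower, the granin Scg2 at -1.34 ± 0.023, with a median of 0.090. For MH against MWT 4 were called higher and 2 lower, with a median of 0.12. These calls were 11.1% of the list for CxH against CxWT and 33.3% for MH against MWT, against 20.9% and 25.0% of all genes. Scg2 was lower there as well, at -1.28, as was Ctsl, the lysosomal protease cathepsin L, at -1.58. Higher in MH were Pcsk1n, an inhibitor of the convertase PC1, at 1.29, and the granule protein Ptprn at 1.04, with Furin and Vgf. The carboxypeptidase Cpe, which trims the cut peptides, had the most reads of the list and log2 ratios of 0.11 and -0.45. For CxWT against MWT the same 4 genes were called higher, Pcsk1n at 2.01 among them, and Ctsl was lower at -1.17, with 7.54% of all genes called.

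**Figure D4:**
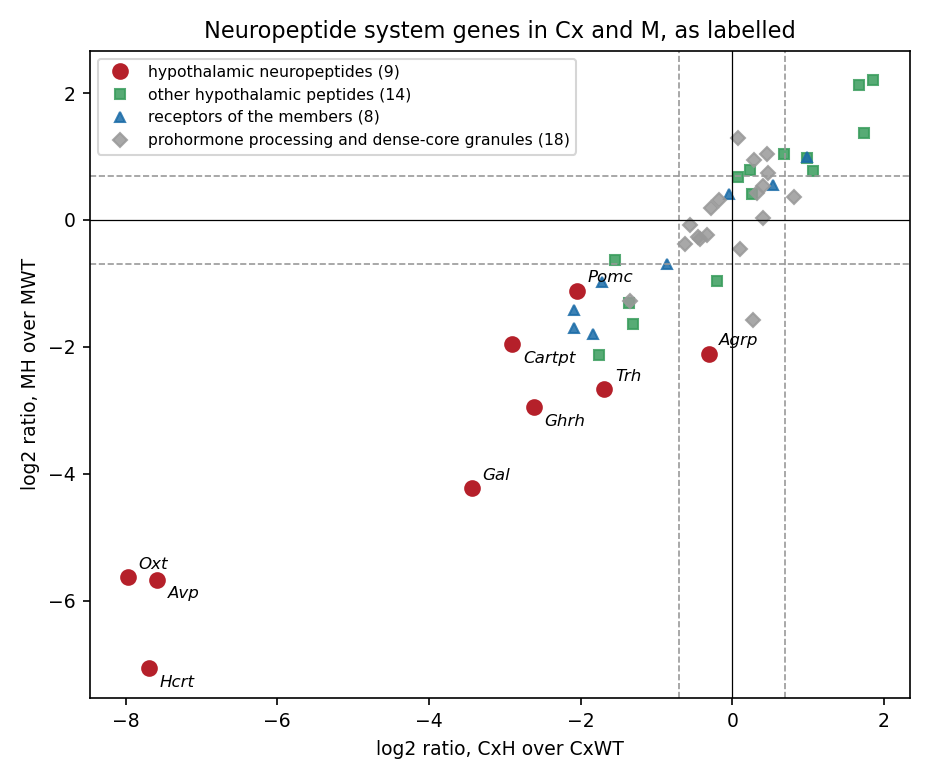
Log2 ratio of CxH over CxWT (x axis) against that of MH over MWT (y axis) for the 9 peptide genes, named, and for the genes of 3 lists, 1 point a gene, with counts of 3 or fewer set to 3 and dashed lines at a log2 ratio of 0.7 in size. The 9 named genes lie below 0 on both axes, with Agrp within 0.7 of 0 on the x axis only.

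Transcription factors that pattern the hypothalamus were measured for 13 of 24 genes, of which 9 were called lower and 1 higher for CxH against CxWT and 8 lower and 2 higher for MH against MWT, with medians of -1.67 and -1.40. Over all genes, 20.9% and 25.0% were called in these comparisons. Otp, needed for oxytocin, vasopressin and Trh neurons, had 3, 75, 2 and 19 reads across CxH, CxWT, MH, MWT. Foxb1, a factor of the mammillary body, had 4, 190, 1 and 70 reads, and Nkx2-1, which marks the ventral hypothalamus, had log2 ratios of -2.18 ± 0.26 and -1.64. Lhx9, also known from the thalamus, had -4.27 and -3.06. For CxWT against MWT 6 of the 13 were called higher and 0 lower, against 7.54% of all genes called. Of 12 genes for monoamine enzymes and hormone receptors, 9 were measured, and 7 were called lower in both comparisons, with 1 higher for MH against MWT. They included Th, the enzyme of dopamine synthesis, at -2.85 and -2.77, and Hdc, the histamine enzyme of the tuberomammillary nucleus, at -1.75 and -1.46. Genes of these lists are also expressed in midbrain, as Th is.

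Lists for neighbouring tissues gave the following sums across CxH, CxWT, MH, MWT. Their counts of calls stand beside 20.9% of all genes called for CxH against CxWT and 25.0% for MH against MWT. The striatal list, 11 of 12 genes measured and sharing Penk and Tac1 with the other peptides, summed to 1303, 540, 1097 and 512 RPM, and 9 of its genes were called higher in both comparisons by genotype label, with 0 and 1 lower. The hippocampal list, 9 of 12 measured, summed to 158, 134, 167 and 97.3 RPM, with 2 higher and 1 lower for CxH against CxWT and 6 higher for MH against MWT. The choroid plexus list, 9 of 10 measured, summed to 590, 148, 646 and 274 RPM, with 6 and 4 of its genes higher and 1 lower in each. Of 13 pituitary genes only Gata2 was measured, a gene the midbrain list also holds, at 3.40, 4.997, 3.40 and 3.32 RPM, and Pomc and the other hypothalamic peptides were not set against further pituitary genes. The part of these levels in the peptide values was not tested.

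Genes with the most similar pattern were found by the Euclidean distance between log2 RPM profiles over the 4 libraries, each centred on its own mean with 0.5 added to the counts, among 11989 genes with at least 100 reads in a library. This measure has only 4 points and describes likeness in these libraries. Nearest to the median profile of the 9 peptide genes were Dlk1 (distance 0.373), an imprinted membrane protein, the transcription factors Tcf7l2 (0.503) and Gbx2 (0.503), the cholecystokinin receptor Cckar (0.519) and the receptor tyrosine kinase Ret (0.560). Dlk1 had 8.26, 87.4, 7.60 and 73.8 RPM across CxH, CxWT, MH, MWT. Among the peptide genes Gal lay closest to the median profile, at 0.484, and Oxt farthest, at 4.21. Taken singly, Hcrt had as its nearest gene the dopamine transporter Slc6a3 (0.483), Avp had Gata3 (0.491), Oxt had Pax7 (0.815) and Ghrh had the serotonin enzyme Tph2 (0.709). Trh lay nearest to Aard (0.0746), Pomc to Clcn5 (0.0839), Cartpt to the calcium-binding protein Calb2 (0.332), Gal to Irx3 (0.444) and Agrp to Sfrp2 (0.986). Tcf7l2, Gbx2, Slc6a3, Gata3, Pax7, Tph2 and Irx3 belong to the midbrain and thalamus list above, and the other nearest genes do not.

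**Figure D5:**
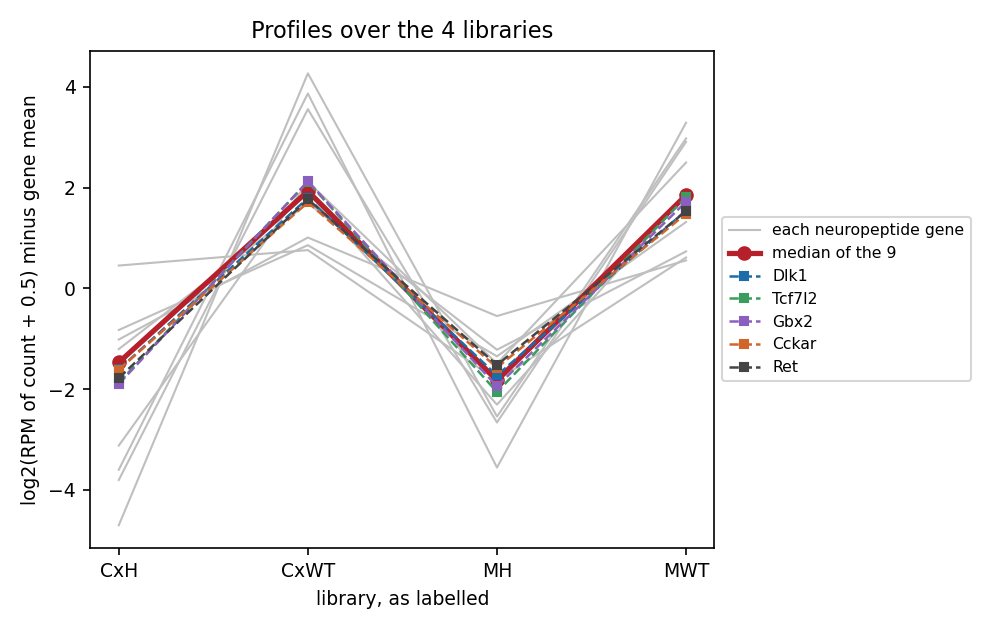
Profiles over the 4 libraries as labelled, in log2 RPM of the count plus 0.5 minus the mean of each gene, for the 9 peptide genes (grey), their median (red) and the 5 genes nearest to the median. The median was -1.47 in CxH and -1.83 in MH but 1.93 in CxWT and 1.85 in MWT, and the single gene above 0 in CxH is Agrp.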

How the data were processed

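Each condition was 1 library made from the pooled RNA of 7 mice and sequenced on SOLiD 3 Plus. The authors aligned reads to NCBI37/mm9 with PASS 2.10, keeping best hits with at most 2 mismatches and no gap. The deposited counts are raw reads aligned to a single gene. For the table the authors kept genes with reads over more than 50% of the gene. The gene annotation they used is not given in the sources used here. The count table holds 12700 genes.

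RPM are counts scaled by the number of reads aligned in each library, as the authors list it. Entrez identifiers were matched to RefSeq symbols for 12690 genes, and positions, transcript lengths and sequence came from GENCODE vM1 and the NCBIM37 genome, the same build. All genes entered the likelihood ratio test on Poisson counts. For a ratio with 0 reads, the count was set to 1 for the call only, and the text gives a bound against 3 reads. With 1 library per condition no test of genotype or area was run, since a fit of both to the 4 libraries would assume that they do not interact, and no p-value is given. The peptide genes, the lists and the tests were chosen with earlier results of these data known. Genes were named if they were peptide genes of the group, Ids, up to 8 genes of a list with the most reads or the largest ratios, or nearest in profile. Kiss1 and Gnrh1 were named in addition. The test was checked on simulated data. Alternatives were column totals, TMM factors of edgeR 4.0.16, size factors of DESeq2 1.42.0, a minimum of 100 reads, a log2 threshold of 1, Benjamini-Hochberg adjustment, a negative binomial exact test with an assumed variation of 0.2, 0.5 added to counts, and a cubic fit on GC content and length. Versions were scipy 1.17.1, biopython 1.88, pysam 0.24.0, numpy 2.4.6, matplotlib 3.10.9, pandas 2.3.3, Python 3.11.15 and R 4.3.3.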

Additional observations from a re-analysis of the deposited data

Results flagged for a closer look

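Ids changed in opposite directions with the genotype label in the 2 areas, with a log2 ratio of -1.39 for CxH over CxWT and 1.24 for MH over MWT. It also changed in opposite directions with the area label, at -1.44 for CxH over MH and 1.19 for CxWT over MWT.

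Oxt had log2 ratios of opposite sign with the area label, -2.63 for CxH over MH and 1.29 for CxWT over MWT. The value for CxH over MH rested on 1 read against 6, its counting interval includes no difference, and with CxH at the floor of 3 reads it was -1.04 and not called, so it does not show a change of direction. With 1 library per condition none of these differences was tested.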

How the results depend on the processing

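With 1 library per condition, leaving out a library ends every comparison that holds it, and variation between pools was not measured. No paired analysis was run. By the labels, both areas of a genotype came from the same brains, with 1 library for each area. The difference between areas within a genotype label is thus the single ratio given for CxH over MH or CxWT over MWT. The number of peptide genes called stayed within 1.5 times in the 4 pairs that set a library labelled CxH or MH against one labelled CxWT or MWT, under every alternative tried, with 6 called under a minimum of 100 reads, which kept 6 of them. For CxH against MH the count of 2 became 0 under that minimum. It became 1 under Benjamini-Hochberg adjustment, 1 with an assumed variation of 0.2, and 1 with counts of 3 or fewer set to 3, a setting chosen after the data were seen, each time by losing Oxt. For CxWT against MWT a log2 threshold of 1 left 1 of 2, losing Cartpt at 0.96. The minimum of 100 reads, the log2 threshold of 1, Benjamini-Hochberg adjustment and the negative binomial test leave every log2 ratio unchanged. Direction could therefore not change under them, and the minimum of 100 reads also leaves the call of each gene it keeps. Of 560 values of single genes under alternatives, 549 kept their direction and call, 4 lost the call, 1 gained it (Pomc, CxH over MH, -0.81 after the GC and length correction) and 6 changed sign, none of them called before or after. These were Cartpt for CxH over MH, from 0.013 to -0.033 (column totals), -0.001 (TMM), -0.009 (DESeq2) and -0.156 (GC and length), Gal for CxWT over MWT, from 0.082 to -0.010 (column totals), and Ids for CxH over MWT, from -0.20 to 0.37 (GC and length).

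Over all genes, TMM factors moved the share of calls that were higher from 45.2% to 56.0% for CxH against CxWT and from 41.9% to 54.2% for MH against CxWT, and shifted the median log2 ratio of the latter by 0.108. DESeq2 size factors gave 55.4% and 54.4%. Column totals moved that share from 69.6% to 58.4% for CxH against MH, from 72.0% to 55.2% for CxWT against MWT and from 50.8% to 39.1% for CxH against MWT, and shifted the last median by -0.108. The GC and length correction covered the 12231 genes with a transcript length and GC content, so the set of genes changed with it. The share became 57.0%, 46.0% and, for MH against CxWT, 51.9%. The calls went from 444 of 12700 genes to 293 of 12231 for CxH against MH. For CxWT against MWT they went from 958 to 372, and for CxH against MWT from 3895 to 1996. A log2 threshold of 1 left 1401 of 2658 calls for CxH against CxWT and 1642 of 3170 for MH against MWT. For CxH against MH and CxWT against MWT it left 143 and 295, and an assumed variation of 0.2 left 191 and 487. For CxH against MWT and MH against CxWT the threshold left 1961 of 3895 and 1064 of 1943.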
